A study of Mus musculus with 2 samples.

Results

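The regions described here were accessible-chromatin peaks found away from genes in a Brd9 knockout library and not in its control. Both deposited peak lists were merged wherever peaks shared at least 1 bp, on the autosomes only. A region was kept when it held knockout peaks alone, lay outside every RefSeq gene of any type and was more than 1 kb from every gene end. Of 28403 autosomal regions, 3713 were knockout-only, a share of 13.1%. Of the 4911 intergenic regions among them, 969 met the rule, a share of 19.7%. Another 1702 intergenic regions were control-only, a share of 34.7%, against 23.5% of all autosomal regions, and 2240 were shared. Intergenic regions made up 26.1% of knockout-only, 25.5% of control-only and 12.4% of shared regions. The higher share among intergenic regions was thus found for both classes present in 1 list alone. The rule used presence in the knockout list and absence from the control list, so the read counts below describe how the regions were chosen and support nothing by themselves.

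The study compared open chromatin in blood progenitors of C57BL/6 mouse embryos at stage E14.5. ATAC-seq reads it out through a transposase that cuts accessible DNA and attaches sequencing adapters there. Both libraries were made from 150000 fetal liver cells sorted as lineage-negative and c-Kit-positive, and both genotypes were CD45.2(+) and carried the floxed Brd9fl/fl alleles. The knockout library (replicate 2) also carried Vav1-iCre, a Cre recombinase driven by regulatory DNA of the blood-cell gene Vav1, and the control library (replicate 1) did not. There was 1 library per genotype, so no test was made, no replicate check exists, and intervals cover counting error only. Whether embryos were pooled is not stated in the labels.

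BRD9 is a bromodomain protein that binds acetylated lysines, and it is a defining subunit of the non-canonical BAF complex. BAF complexes use ATP to slide or evict nucleosomes, which opens DNA to transcription factors. Open intergenic sites include enhancers, insulators bound by CTCF and unannotated promoters, and in blood progenitors such distal elements carry much of the lineage-specific accessibility. A peak list alone does not tell these kinds of site apart.

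The gene-end region of Brd9 itself was shared, at 217 control and 151 knockout summit reads; where the loxP sites lie is not known here, so it checks neither label. Summit reads are the whole number of extended reads covering a peak's summit, recovered from the deposited values. The knockout library had 0.640 times the depth of the control library, taken as the ratio of their lowest local backgrounds. Of 6 stem and progenitor markers, Kit, Runx1, Myb and Tal1 had gene-end peaks in both lists while Cd34 and Gata2 had none in either; of 3 hepatocyte markers none had a peak, and of 6 endothelial and stromal markers Kdr and Col1a1 had one in both lists. Sex-linked genes differed between the libraries too: peaks at Ddx3y and Uty on the Y chromosome, with 33 and 18 summit reads, were in the knockout list alone, and the highest peak at Xist had 86 control and 33 knockout reads. Genotype, depth and this difference cannot be told apart with these libraries.

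The members' own base sequences were not analysed here, since no genome sequence was used and none of the 969 overlapped a RefSeq promoter window or miRNA hairpin. Sequences are shown instead for the annotated elements beside members that the results turn on. For 3 members the nearest gene was a miRNA gene. The member 4488 bp from Mirlet7d (chr13:48531111-48531523, mm10) had 9 summit reads. That gene encodes let-7d, of the let-7 family that restrains the fetal programme of blood stem cells. Between this member and the next shared region on that side of it lay a control-only region with 14 reads, and the shared intergenic region across the gene had 495 control and 334 knockout reads. A member 2837 bp from Mir3965 had 10 reads, and one 5142 bp from Mir467h had 6. The mature miRNAs are given from RefSeq (GRCm38.p6), with the seed, bases 2 to 8, in capitals; no seed was shared among them. These genes were picked out after the values had been seen.
mmu-let-7d-5p: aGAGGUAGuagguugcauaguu
mmu-let-7d-3p: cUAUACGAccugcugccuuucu
mmu-miR-3965: uGCUUAUCagccugauguu
mmu-miR-467h: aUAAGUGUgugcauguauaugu

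Promoters are shown for 3 blood genes whose neighbourhoods are described further on: Gfi1b, Cebpb and Kcnn4. Each window runs from 250 bases before to 50 bases after a RefSeq start on GRCm38.p6, the assembly with mm10 coordinates, and is written 5′ to 3′ on the gene's strand. All 3 windows lay in shared regions, so the promoters were open in both libraries while a member stood nearby in the knockout alone. Capitals mark matches on either strand to 3 short motifs, RUNX (TGTGGT), KLF (CCACCC) and MEIS (TGACAG), and none of the matches overlapped another. The Gfi1b window held none of these letters.
Gfi1b promoter, chr2:28621933-28622232, minus strand: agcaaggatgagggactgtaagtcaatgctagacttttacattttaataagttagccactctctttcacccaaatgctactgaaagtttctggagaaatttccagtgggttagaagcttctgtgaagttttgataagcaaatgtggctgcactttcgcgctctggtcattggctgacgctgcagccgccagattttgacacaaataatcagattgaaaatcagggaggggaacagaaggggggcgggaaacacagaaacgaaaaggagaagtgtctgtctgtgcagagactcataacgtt
Cebpb promoter, chr2:167688665-167688964, plus strand: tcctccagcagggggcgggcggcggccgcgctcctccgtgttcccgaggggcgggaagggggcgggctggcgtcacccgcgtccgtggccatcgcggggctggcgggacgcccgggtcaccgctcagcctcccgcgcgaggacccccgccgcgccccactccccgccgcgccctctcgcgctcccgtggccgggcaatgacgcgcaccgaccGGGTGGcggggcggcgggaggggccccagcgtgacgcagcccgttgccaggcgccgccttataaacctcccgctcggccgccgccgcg
Kcnn4 promoter, chr7:24370013-24370312, plus strand: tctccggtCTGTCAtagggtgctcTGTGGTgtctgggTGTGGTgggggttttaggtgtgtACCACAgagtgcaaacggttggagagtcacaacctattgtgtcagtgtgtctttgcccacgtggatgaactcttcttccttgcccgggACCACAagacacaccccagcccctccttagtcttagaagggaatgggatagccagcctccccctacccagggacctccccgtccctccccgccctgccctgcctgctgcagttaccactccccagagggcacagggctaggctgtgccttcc

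Across all 31396 autosomal promoter windows, the RUNX letters were in 16.7%, the KLF letters in 31.7% and the MEIS letters in 19.1%. Among the 488 windows of coding genes that were the nearest gene of a member, the shares were 12.5% (95% exact interval 9.70 to 15.8), 39.8% (35.4 to 44.3) and 17.8% (14.53 to 21.5). These windows belonged to 382 genes, and the intervals count windows of the same gene as independent. The set of all windows was not filtered by gene type. The corresponding windows nearest to control-only intergenic regions gave 14.6%, 39.2% and 19.7%, and those nearest to shared intergenic regions 12.95%, 39.4% and 19.02%. Of 6 other motifs counted, the GATA factor motif, with the letters AGATAA, was in 7.79% (5.57 to 10.5) of the windows beside members, against 11.2% of all windows, 10.3% of those beside control-only and 5.80% of those beside shared regions. For the remaining 5 (ETS, PU.1, an E-box, AP-1 and C/EBP), the members' interval included the share over all windows.

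Most of the regions were weak. The members had between 6 and 45 summit reads in the knockout library, with a median of 9 and a middle range of 8 to 12. Their median deposited −log10 q was 4.64, and 54.7% of them (530) had the lowest, genome-wide background. At the control's depth, 9 reads would stand at 14.06, and 4720 autosomal control peaks (19.1%) had 14 reads or fewer, so peaks of this size were called in the control list too. Shared intergenic regions had a median of 20 reads in the knockout and 30 in the control, and control-only intergenic regions a median of 14 in the control. Of the members, 464 (47.9%) had at least 10 reads, 138 (14.2%) at least 15, 40 (4.13%) at least 20 and 3 at least 30.

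**Figure D1:**
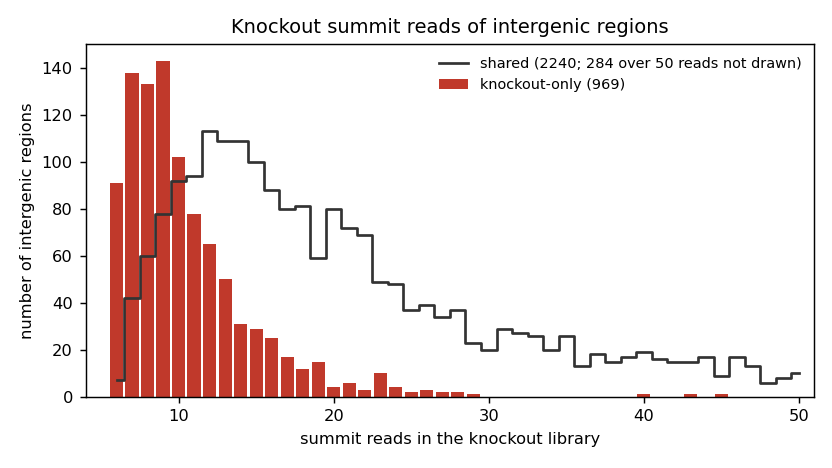
Number of intergenic regions (vertical axis) by summit reads in the knockout library (horizontal axis); bars are the 969 knockout-only regions and the line is the 2240 shared regions, of which those over 50 reads are not drawn. The knockout-only regions crowd between 6 and 12 reads, with 3 regions at 40, 43 and 45, while shared regions extend far to the right.

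How often an intergenic knockout region lacked a control peak fell steeply with its read count. Of those with 6 or 7 knockout reads, 82.4% (77.4 to 86.7) had no control peak. The share was 66.7% at 8 to 9 reads, 45.0% at 10 to 12, 22.4% at 13 to 18 and 8.40% at 19 to 30. Of the 623 regions with 31 reads or more, 3 lacked a control peak, a share of 0.482% (0.0994 to 1.40). For the opposite direction, control reads were brought to the knockout depth and sorted into the same classes. Control regions lacking a knockout peak made up 81.9% (78.9 to 84.7) of the lowest class and 63.8% of the next, close to the knockout values. From 10 reads upward the control shares were higher, at 54.9%, 35.6%, 18.6% and 6.84% (5.12 to 8.92). The control list thus held more strong intergenic regions missing from the other list than the knockout list did, although its greater depth also bears on what each list could call, and that was not tested.

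**Figure D2:**
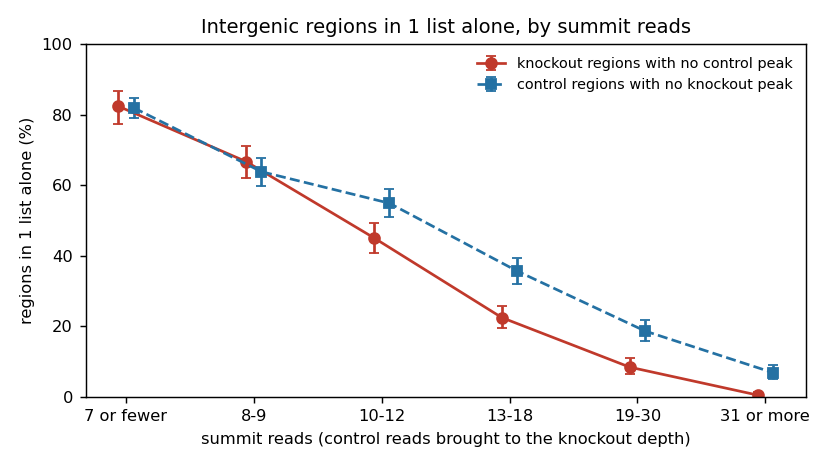
Share of intergenic regions present in 1 list alone (vertical axis, percent) by summit reads at the knockout depth (horizontal axis); circles are knockout regions without a control peak, squares are control regions without a knockout peak, and bars are 95% exact binomial intervals. Both lines start above 80% and fall, and in the highest class the knockout stands at 0.482% and the control at 6.84%.

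The regions were also narrow. Each held a single peak, and their widths ran from 376 bp, the shortest peak in either list, to 1717 bp, with a median of 510 bp (499 to 522). Together they covered 530.1 kb, or 2.18% of the length of all autosomal regions. At like reads, 8 to 12 in the knockout, the 521 members had a median width of 523 bp (506 to 539) and the 437 shared intergenic regions one of 794 bp (763 to 826). A merged shared region can be wider because it joins the outlines of peaks from both lists. Control-only regions, which like the members come from a single list, give the closer comparison: at 8 to 9 reads in their own list, members had a median of 527.5 bp and control-only regions 503 bp. At 20 reads or more, members remained at 493 bp (448 to 536, 40 regions), against 618 bp (595 to 635) for control-only and 924 bp for shared regions. Control reads were not brought to the knockout depth for these widths, so the classes are not matched. With 31 reads or more there were 3 members and 143 control-only regions. Among the members, width showed no steady increase with reads: the median was 481 bp at 7 reads or fewer, 530.5 bp at 13 to 18 and 519.5 bp at 19 to 30.

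**Figure D3:**
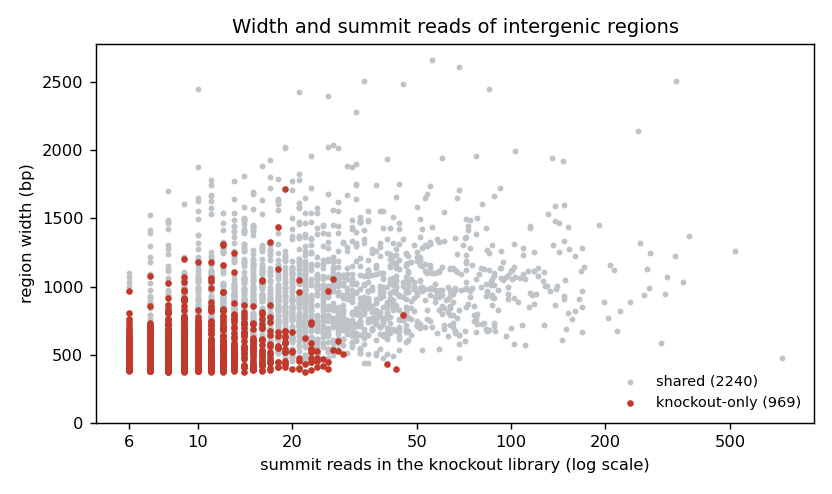
Width (vertical axis, bp) against knockout summit reads (horizontal axis, log scale) of the 969 knockout-only and the 2240 shared intergenic regions; each point is a region. Most knockout-only regions sit low, including the 3 with 40 reads or more, at 393, 432 and 794 bp, but single ones reach 1717 bp.

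The strongest member lay 2228 bp beyond the 3′ end of Rae1, which encodes an mRNA export factor of the nuclear pore (chr2:173017968-173018761), with 45 summit reads (32.8 to 60.2). A shared region 774 bp away had 93 control and 39 knockout reads, a ratio of 0.655 (0.439 to 0.962) after division by the relative depth of 0.640. The signal at this neighbour was thus lower in the knockout than in the control, next to a member found in the knockout alone. The next member, with 43 reads, was only 393 bp wide and lay 1829 bp from Dgat2, the gene of an enzyme that makes triglycerides (chr7:99151441-99151833). The third had 40 reads and lay 1457 bp from Gm35058 and 4080 bp from Rplp1, a ribosomal stalk protein gene (chr9:61908771-61909202). Its local background of 19.34 reads was the highest of all members, its deposited fold of 2.02 the lowest, and a control-only region with 54 reads lay 282 bp away.

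The remaining members of the first 12 had 25 to 29 reads. The one with 29 lay 8113 bp from the 3′ end of Grasp, a scaffold protein gene (chr15:101240870-101241376). That near Dnase1l3, which encodes a secreted DNase, had 28 reads over a background of 1.77 and no shared region within 50 kb of it (chr14:7997320-7997844). Another with 28 lay near Gm14320 and upstream of Cebpb. Members near Adgrf1, an adhesion receptor gene, and near Gm19696 had 27, and members near A830021M18Rik, Dand5, which encodes a Nodal antagonist, and Gfi1b had 26. The last, with 25, lay 20119 bp from 4933417E11Rik and 284855 bp from any shared region; a member near Btbd2 also had 25 reads and ranked next by its lower −log10 q. Of the 10 nearest shared regions beside members ranked 3 to 12, 9 had a scaled ratio whose interval included 1, the exception being that beside A830021M18Rik (90 and 39 reads, 0.677, 0.452 to 0.996). Over all 18023 shared regions, 8.52% had an interval below 1 and 7.47% above 1, so such neighbours were not particular to members.

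At Gfi1b, whose product is a repressor needed for red cell and platelet formation, the member lay 3415 bp beyond the 3′ end (chr2:28605589-28606034), with 26 summit reads (17.0 to 38.1) over a background of 7.46. The shared intergenic region 1102 bp away had 34 control and 30 knockout reads (1.38, 0.815 to 2.32). On its other side, 2957 bp away, a control-only region had 145 reads (chr2:28602082-28602631). In control reads it stood above 4 of the 6 shared regions within 50 kb of the gene. A region found in the knockout alone and one found in the control alone therefore stood side by side 3′ of Gfi1b. The promoter printed above lay in a shared region with 55 and 29 reads (0.823, 0.506 to 1.31).

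Around Cebpb, which encodes a transcription factor of granulocyte and monocyte development, 4 knockout-only regions, 0 control-only and 3 shared regions lay within 50 kb. Of the 4, 2 were intergenic. One lay 15965 bp on the 5′ side (chr2:167672347-167672949), with 28 reads (18.6 to 40.5) and a deposited −log10 q of 21.5. It was closer to Gm14320 (4642 bp) and to the coding gene Tmem189 (10802 bp) than to Cebpb. The other lay 22010 bp on the 3′ side (chr2:167712443-167712890), with 18 reads (10.7 to 28.5), and was closer to Gm38464 (12340 bp). The other two, each with 10 reads, were at or in neighbouring genes. The promoter region had 38 control and 24 knockout reads and a scaled ratio of 0.986 (0.566 to 1.69), and the shared intergenic region between it and the stronger member had 61 and 42 (1.08, 0.708 to 1.62). A shared region 26610 bp away had 86 and 35 (0.636, 0.416 to 0.952). The promoter's interval thus included 1 beside a pair of members found in the knockout alone.

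The tightest run of members was beside Rps20, a gene of the small ribosomal subunit, where 3 stood within 5516 bp (chr4:3824830-3830345). They had 19, 17 and 19 reads and lay 6167, 3976 and 1238 bp from the gene. Within 50 kb of Rps20 there were 4 knockout-only, 0 control-only and 2 shared regions. The shared region at the gene had 199 control and 118 knockout reads (0.926, 0.731 to 1.17). All 3 members were close in height and well below the knockout count of the region at the gene.

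At Kcnn4, which encodes the calcium-activated potassium channel of red cells, the member lay 5984 bp on the 5′ side (chr7:24363370-24363841), with 17 reads (9.90 to 27.2). The promoter printed above, with 4 RUNX matches and 1 MEIS match, lay in a shared region with 219 control and 46 knockout reads and a scaled ratio of 0.328 (0.233 to 0.453). Over the 3 other shared regions inside the gene and the next one beyond it, ratios ran from 0.816 to 0.976 and all intervals spanned 1. A shared region 14022 bp beyond the gene had 367 control and 309 knockout reads (1.32, 1.13 to 1.53). Here the promoter was lower in the knockout while a weak distal region was called in the knockout alone.

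**Figure D4:**
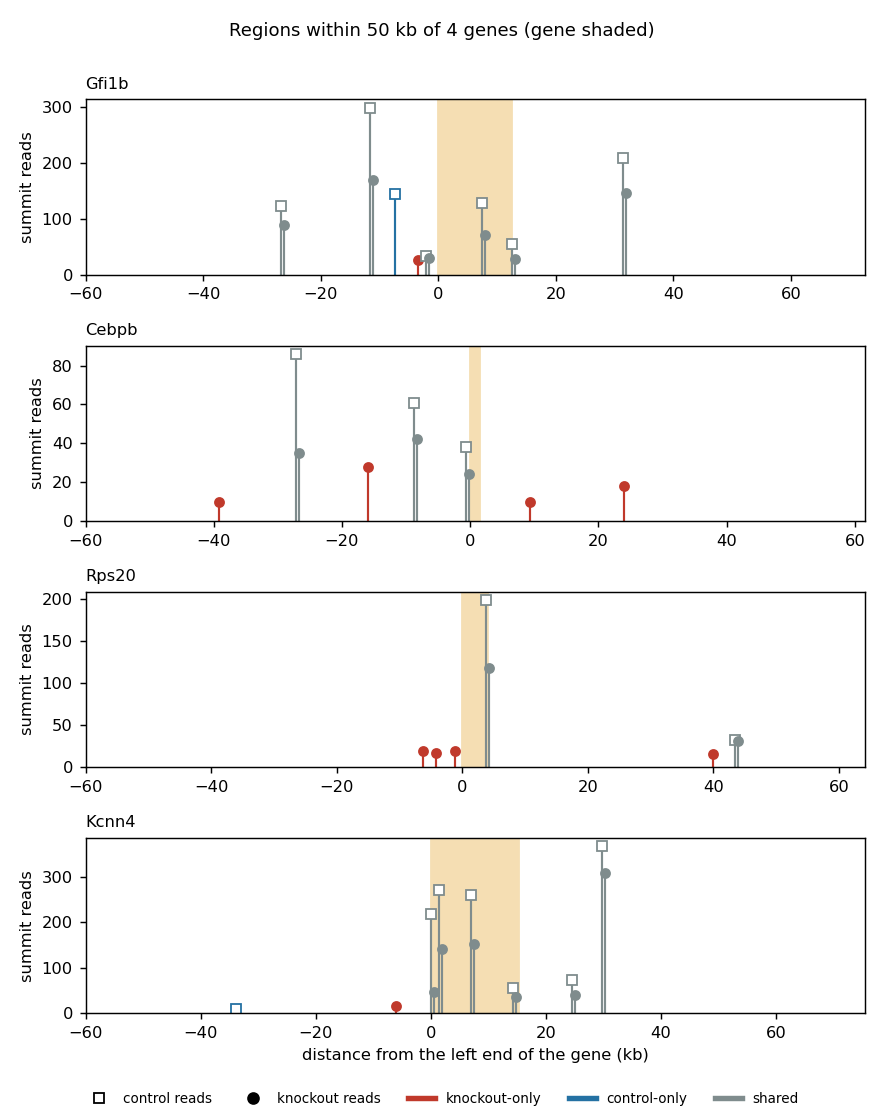
Summit reads (vertical axes) of every region within 50 kb of Gfi1b, Cebpb, Rps20 and Kcnn4 against distance from the left end of the gene (horizontal axes, kb; the gene is shaded); open squares are control reads, filled circles are knockout reads, and colour gives the class. Knockout-only regions had 10 to 28 reads; the strongest one at Cebpb stood above the knockout count of the promoter region (24), those at Rps20 and Kcnn4 stood below the shared regions, and at Gfi1b the control-only region with 145 reads is close to the member.

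Neighbouring members were counted as a group when they lay at most 50 kb apart. Most stood alone: 822 were single, 126 formed 63 pairs and 21 formed 7 groups of 3, and no group was larger. Besides the Rps20 group, groups of 3 lay near Gm40750, Gm25514 and Gm13981, Gm46777 to Trp53rkb, Pla2g2e to Gm33011, Gm46023 and Gm45181, and Gm35177 and Gm39319. These other groups spanned 33803 to 60290 bp, and their members had 6 to 19 reads. All 7 tied in size and are therefore named. The groups near Gm40750 and Gm39319 had neither a shared nor a control-only region within 50 kb, whereas that near Trp53rkb had 6 shared and 1 control-only.

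The regions lay a median of 8495 bp (7871 to 9777) from the nearest gene. Control-only intergenic regions had a median of 7687 bp (7254 to 8319), shared ones 7612 bp (7084 to 7942) and shared ones of like reads 8904 bp (7886 to 9962). The members' median was thus above those of control-only and all shared regions and below that of shared regions of like reads, and its interval overlapped all 3. Between 5 and 10 kb lay 20.4% (17.9 to 23.1) of members against 26.3% (24.2 to 28.5) of control-only and 25.9% of shared regions, and between 10 and 50 kb 39.5% against 35.4% and 35.2%. Only 20 members (2.06%) were more than 100 kb from a gene. The farthest were 376011 bp from Gm39886 (chr2:101036814-101037249) and 338674 bp from Gm25496, with 7 reads each, followed by members near LOC115489629, Gm18071 and Gm30770 with 6, 6 and 8 reads. These isolated members were all among the weak ones.

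**Figure D5:**
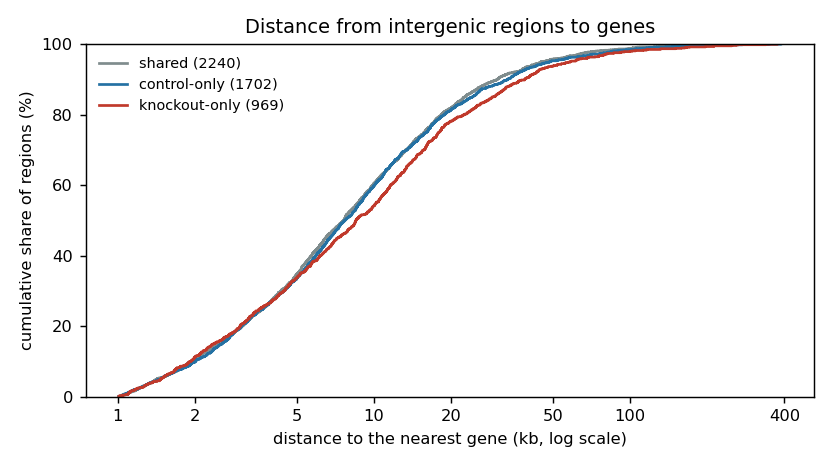
Cumulative share of intergenic regions (vertical axis, percent) by distance to the nearest gene (horizontal axis, kb, log scale) for knockout-only, control-only and shared regions. The curves coincide up to about 5 kb, and beyond it the knockout-only curve runs to the right, with a median of 8495 bp against 7687 and 7612 bp.

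The kind of neighbouring gene hardly differed. The nearest gene was protein-coding for 52.4% (49.2 to 55.6) of members, a long non-coding RNA for 32.1% and a pseudogene for 11.97%. For control-only regions these shares were 51.4%, 33.1% and 12.6%, and for shared regions 52.3%, 32.2% and 12.3%. Where a strand was known, 45.8% (41.8 to 49.8) of 614 members lay on the 5′ side of their gene, against 45.9% and 43.9% of the other classes. By chromosome, members ran from 25 on chromosome 19 to 79 on chromosome 2, and they made up between 16.6% (chromosome 16, 11.5 to 22.8) and 23.9% (chromosome 12, 18.2 to 30.4) of the intergenic regions. Every chromosome's interval included the 19.7% of all autosomes.

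Members had a shared region close by less often than all shared intergenic regions did. A shared region lay within 10 kb of 24.9% (22.2 to 27.7) of members, of 30.2% (28.0 to 32.4) of control-only and of 35.6% (33.6 to 37.7) of shared intergenic regions. For shared regions of like reads the share was 29.1% (24.8 to 33.6), an interval that overlapped that of the members. At short range, regions of the other list were more frequent: 11.4% (9.42 to 13.5) of members had a control-only region within 5 kb, against 6.21% (5.24 to 7.29) of shared intergenic regions and 5.26% (3.37 to 7.79) of those of like reads. Control-only intergenic regions showed the mirror of this and were not set apart from members by it. A knockout-only region lay within 5 kb of 6.58% (5.45 to 7.86) of them and of 3.04% (2.37 to 3.83) of shared ones. A shared region holds a peak of both lists by definition, and the part of this in these shares was not tested. Farther out the order of members and shared regions changed. The members' share stood above that of all shared regions within 10 kb and below it within 50 kb, with overlapping intervals. Within 10 kb the shares were 16.3% (14.03 to 18.8) of members, 14.6% (13.2 to 16.2) of shared regions and 11.7% (8.81 to 15.1) of those of like reads. Within 50 kb they were 45.6% (42.4 to 48.8), 50.1% (48.0 to 52.2) and 46.9% (42.15 to 51.7). The median distance to a control-only region was 61148 bp (53930 to 66666) for members and 49566 bp (45673 to 53017) for shared regions. Members thus lay farther from control-only regions by this measure, with intervals that did not overlap. A control peak of any class lay within 100 bp of 10 members, within 500 bp of 23 and within 1000 bp of 46. Merging peaks up to 500 bp apart left 943 members.

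The regions just inside and just outside each limit of the rule had like read counts. Members closest to a control peak lay near Ncdn, Sf3b5 and n-TPtgg8, 8, 11 and 13 bp from it, with 9, 9 and 8 knockout reads beside control peaks of 14, 15 and 11 reads. Regions near Anp32b, Gm36862 and Slc45a3 shared 6, 7 and 7 bp with a control peak and so fell outside, with 8, 14 and 6 knockout reads. At the 1 kb limit, members near Prdm14, Mpg and Gm40773 lay 1009, 1012 and 1015 bp from the gene with 11, 15 and 16 reads. Knockout-only regions near Fcgr4, Itih1 and Gm31294, at 997, 991 and 990 bp with 15, 14 and 7 reads, were left out.

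Shared regions beside members, which the rule did not use, had ratios near 1 once the counts were divided by the relative depth of 0.640. Within 50 kb, 626 different shared regions were the nearest to a member. Their median log2 scaled ratio of knockout over control was 0.03 (−0.00 to 0.07). The interval of the ratio lay above 1 for 48 (7.67%) and below 1 for 43 (6.87%). Among all 18023 shared regions these shares were 7.47% and 8.52%, so the neighbours of members stood near the background in both directions. Shared regions nearest to control-only intergenic regions had a median of 0.02 (−0.02 to 0.04).

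Where a member's nearest gene was coding, it was 1 of 485 different genes, and 382 of these had a promoter window. At 54.5% (49.3 to 59.5) of them the promoter lay in a shared region, at 2.36% in a knockout-only and at 3.14% in a control-only region, and at 40.1% in none. Over all 16456 autosomal coding genes with a window the shares were 48.9%, 1.31%, 2.56% and 47.2%. The promoter lay in a shared region for 59.7% (55.8 to 63.6) of such genes beside control-only and 61.6% (58.2 to 64.9) of those beside shared intergenic regions, and in none for 33.3% and 34.2%. In both of these shares, the genes of members stood between the other intergenic classes and all coding genes. For 217 shared promoter regions of these genes the median log2 scaled ratio was 0.02 (−0.02 to 0.10). Of them 23 (10.6%) had an interval above 1 and 17 (7.83%) below, against 9.19% and 7.65% of all shared promoter regions.

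Blood and niche genes with a member nearby were taken from 12 lists with 272 autosomal genes. A member lay within 50 kb of 36 of these genes. This took up 35 members, or 3.61% (2.53 to 4.99) of them, against 4.41% of control-only and 4.29% of shared intergenic regions. Of the 206 intergenic regions around the listed genes, 17.0% (12.1 to 22.8) were members, near the 19.7% of all intergenic regions. A listed gene was often not the nearest gene of its member. The members named below for Msi2, Rhd, Tcf7 and Cd68 lay closer to Ccdc182 (18112 bp), Syf2 (8610 bp), Olfr1371 (6377 bp) and Tnfsfm13 (6182 bp).

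Among erythroid genes, 5 of 41 had a member: Hba-a2, an alpha-globin gene with a near-identical copy, the carbonic anhydrase gene Car2, Ermap, Rhd and Kcnn4. The member nearest to Rhd, a Rhesus blood group gene, had 17 reads but lay 49975 bp from it. Members made up 5 of the 43 intergenic regions around erythroid genes, and 15 were control-only. Stem and progenitor genes had members at 7 of 42: Myb, Msi2, Ldb1, Gfi1b, Procr, Kit and Fli1. That of Msi2, an RNA-binding protein of blood stem cells, had 21 reads, 25045 bp beyond the 3′ end. Within 50 kb of Msi2 there were 3 knockout-only, 6 control-only and 5 shared regions. All but the member lay inside the gene, the other knockout-only regions with 7 and 15 reads. Here 7 of 41 intergenic regions were members and 18 control-only.

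Granulocyte and monocyte genes had members at 6 of 30: Csf2rb, Csf1r, S100a8 and S100a9, which share 1 member, Cebpb with 2, and Fes. These were 6 of 27 intergenic regions, and 8 were control-only. Of 19 megakaryocyte genes only Gp1bb had a member, and of 13 mast cell and basophil genes none did, with 4 intergenic regions there in all. B lymphoid genes with a member were Tcf3, Irf4, Il7r and Bach2 (4 of 17). T and NK genes were Tcf7, Tbx21 and Gata3 (3 of 19). The Tcf7 member had 16 reads (9.15 to 26.0) and lay 25437 bp beyond the 3′ end of this T cell factor gene, next to a control-only region with 11 reads. Counts per list were small, and each list's share of members had an interval that included 19.7%.

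Genes of other cell types that a fetal liver sort could hold also had members. Macrophage genes had 3 of 17 (Cd68, Cd5l and Hmox1), and members were 3 of the 12 intergenic regions around them, the Cd68 member with 15 reads 36110 bp away. Of 18 hepatocyte genes only Apoa2, a lipoprotein gene, had a member, with 23 reads (14.6 to 34.5) at 41965 bp, but it lay 1599 bp from B4galt3, a galactosyltransferase gene. It was 1 of 3 intergenic regions around hepatocyte genes. Eng and Sox18 were the endothelial genes (2 of 14 genes, 2 of 7 intergenic regions). Pdgfrb was the stromal gene (1 of 14 genes, 1 of 3 intergenic regions), and its member is also the one near Csf1r. These shares, 25% to 33.3%, were above the 19.7% of all intergenic regions, with intervals that included it and few regions in each. They did not set these lists apart, since the B lymphoid share (4 of 14 regions, 28.6%) and the granulocyte and monocyte share (22.2%) were above it too. Genes of BAF complex subunits with a member were Arid2, Arid1b and Actb (3 of 29), with 9, 6 and 11 reads. The part of other cell types in these peaks was not tested.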

How the data were processed

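Peak lists of 1 control and 1 knockout ATAC-seq library, 1 list per sample, were used as deposited. The tools are MACS2 2.2.7.1, Bowtie2 2.4.4, deepTools 3.5.1, Trimmomatic 0.39 and Picard 2.26.2 on build mm10 (per the submitters' processing notes, with no role or setting stated); read shifting, duplicate handling and blacklists are not stated either. The deposited score was not used. The deposited fold is the ratio of summit pileup to local background, each plus 1. The deposited −log10 p and −log10 q compare the same values. The other deposited column used is the summit offset, a distance in bp.

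Summit reads were recovered as the whole number that satisfies fold and −log10 p together (largest relative misfit 7.3e-06), which was tested on simulated peaks. They are not library depth: total reads are unknown, so relative depth was the ratio of the lowest backgrounds, 0.971 over 1.52 reads. A peak list holds only called peaks, so absence is not a count of 0.

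Overlaps and all else used pandas 2.3.3, SciPy 1.17.1, NumPy 2.4.6 and matplotlib 3.10.9 in Python 3.11.15. The number of merged regions was checked with bedtools 2.31.1. Intervals are 95%: order statistics for medians, exact conditional binomial for ratios, exact Poisson for reads and exact Clopper-Pearson for shares. Since no molecular identifiers mark independent molecules, they cover counting error alone. No p-value was computed from 1 library per group.

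Genes, promoter windows and miRNAs came from RefSeq tables of GRCm38.p6. Strand was taken from the promoter table, and genes without an entry there have none. The members, gene lists, motifs and alternatives were chosen with earlier results of these data known. Named genes are those nearest the 12 members with most reads (ties by −log10 q) and the 5 farthest from genes, those beside groups, listed genes within 50 kb (values for 15 reads or more, or 2 members), and members nearest each limit of the rule.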

Additional observations from a re-analysis of the deposited data

How the results depend on the processing

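For 11 results, 66 alternatives were computed. Of these, 42 were classed as leaving the value in place and 24 as moving it, and no class for a reversal was used. For the number of regions, left in place was a wide class. It took in 1314 regions with coding genes alone, 1126 with equal numbers of peaks and 815 at 2.5 kb, against 969. With only peaks of −log10 q of at least 5, the regions numbered 491, of which 388 were among the 969, with a median of 13 reads and 541 bp, and made up 13.8% of intergenic regions; 24.2% of control-only regions were then intergenic. With equal numbers of peaks from each list, knockout-only regions made up 26.2% of intergenic regions. At 2.5 kb from gene ends, 21.95% of knockout-only and 21.8% of control-only regions were intergenic, a median of 11121 bp from genes. At 5 kb there were 642 regions (17.3%, control-only 16.96%), a median of 14136 bp from genes, 20.9% of them with a shared region within 10 kb. With coding genes alone the shares were 35.4% and 34.9%, knockout-only regions made up 18.3% of intergenic regions, and the median distance was 18104 bp. A shared region lay within 5 kb of 7.33% and within 20 kb of 45.1% of members. Members near listed genes numbered 9 within 10 kb and 57 within 100 kb, and groups of 3 or more numbered 1 at 20 kb and 15 at 100 kb. The cause of these moves was not tested. The scaled ratios' neighbours and scaling were varied in alternatives chosen after seeing the data. Sequence composition of summit windows was not run, since no genome sequence was used. No paired analysis was possible because the groups share fewer than 2 replicate numbers.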

Other observations

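Chromosome X, which the rule leaves out, held 120 intergenic regions by the same limits. Of these, 18 were knockout-only (15%, 9.14 to 22.7), 40 control-only and 62 shared. The strongest of the 18 had 29 summit reads and lay 67339 bp from Zxda, a zinc finger gene, and those near Gm26314 and Supt20-ps had 16 and 14. Their median was 8.5 reads, against 9 on the autosomes. The libraries differ at sex-linked genes, and the part of that difference in these counts was not tested.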
